A study of Mus musculus with 6 samples.

Results

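Collagens are trimeric proteins of the extracellular matrix whose chains wind into a triple helix. The set described here is every gene with a single array symbol of the form Col, number, a, number. It held 42 genes with 82 probe sets among the 45037 probe sets of the array, and all 42 were found in RefSeq by gene ID. Each gene was represented by the probe set with the highest mean signal over all 6 arrays. The genes were sorted into 11 fibrillar collagens, 8 basement membrane collagens (type IV, XV and XVIII) and 23 others. After probe sets in the lowest 40% by mean signal were left out (a mean log2 signal of 4.72 or less), 34 of the 42 genes were tested, against 13202 tested genes in all.

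Lung RNA from adult female F1 mice was hybridised to Affymetrix 3' expression arrays, 3 arrays per cross. One group came from AKR/J crossed with FVB/NJ (AKR F1) and the other from DBA/2J crossed with FVB/NJ (DBA F1). Every mouse therefore carried 1 chromosome set from FVB/NJ, was killed under Avertin anaesthesia and had its lung snap frozen, and no treatment separated the groups. The comparison asks which genes differ at baseline between the crosses. Whether the arrays stand for separate animals is not given in the labels, so p-values measure only the spread between these samples, and the precision is limited by the number of arrays.

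Fibrillar collagens form the tension-bearing fibres of bronchial walls, vessels and alveolar septa. Type IV collagen forms the sheet of basement membranes instead. Its alpha 1 and alpha 2 chains occur in nearly all of them, while the alpha 3, alpha 4 and alpha 5 chains make a separate network known from the alveolar and glomerular basement membranes. Other collagens decorate fibrils, form microfibrils, anchor epithelia or span the cell membrane.

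A few facts of the whole series touch these results. The squamous epithelium marker list, 10 of whose 11 genes on the array were tested, had means of 4.93 and 4.82 in AKR F1 replicates 1 and 2. The other 4 arrays had means of 8.79 to 9.50. Krt13, a keratin of that list, differed by -5.76 with adjusted p = 0.230 by limma, and Lor by -5.52. The skeletal muscle list split the same way, with means of 5.95 and 5.19 against 10.06 to 10.76. All 8 tested adipocyte markers had negative differences and 5 were called, with list means of 7.24 to 7.78 in AKR F1 and 8.48 to 9.22 in DBA F1. Of the 5, Lep and Pck1 had AKR F1 means under the filter level (4.50 and 4.43), so they were tested only through their DBA F1 signals. Of all tested genes, 55.1% had positive differences and 2.48% were called, 1.06% toward DBA F1. The alveolar epithelium list, whose high signals fit the labelled tissue, had means of 12.21 to 12.36 in AKR F1 and 12.05 to 12.18 in DBA F1. The 3' minus 5' log2 signal of the Gapdh control was -0.30 as a mean in both groups. For the actin control it was 0.50 on AKR F1 replicate 2 and 0.30 to 0.38 on the other 5 arrays. All differences below are AKR F1 minus DBA F1 on the log2 scale, with the moderated standard error (SE) from limma, and a gene was called at a Benjamini-Hochberg adjusted p under 0.05 over all tested probe sets.

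The clearest difference among the collagens was in Col4a3, which encodes the alpha 3 chain of type IV collagen. Its signal was 1.77-fold higher in AKR F1 lung. Col13a1, a transmembrane collagen of cell adhesion sites, was 1.33-fold higher in AKR F1. These were the 2 called genes of the 34 tested, and 0 collagen genes were called toward DBA F1 by limma. Over all tested genes 2.48% were called, 1.42% toward AKR F1 and 1.06% toward DBA F1. At an unadjusted p under 0.05 there were 6 collagen genes, against 19.1% of all tested genes. In RNA from whole tissue, fewer cells of a type and less RNA per cell cannot be told apart. Whether sequence differences between the crosses under the array probes alter these signals was not tested. Col13a1 was measured by 1 probe set, so no other probe set can be set beside it.

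Upstream sequences at the loci of the called genes are shown here. Col4a3 and Col4a4 lie head to head on chromosome 1 and share the stretch between their starts. Col4a3 had no RefSeq promoter entry, so that stretch is taken from the entry of Col4a4, which was not called. Col13a1 lies on chromosome 10 between Gm2137 and Fam241b, which are not collagen genes. Both sequences come from the RefSeq promoter table for GRCm38.p6. They are written on the minus strand, which is the coding strand of Col4a4 and of Col13a1. Capitals mark any match to a GC box (GGGCGG), or to the boxes named after their letters CCAAT and, for the TATA box, TATAAA, on either strand.
Col4a4, chr1:82586850-82586920, the 71 bases before its start, up to the Col4a3 gene: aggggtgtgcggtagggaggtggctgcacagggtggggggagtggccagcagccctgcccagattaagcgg
Col13a1, chr10:61979207-61979358, bases 99 to 250 before its start: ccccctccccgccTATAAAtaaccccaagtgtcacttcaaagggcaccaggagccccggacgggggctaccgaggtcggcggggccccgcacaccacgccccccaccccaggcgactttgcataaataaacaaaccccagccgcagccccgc
The first stretch has a G and C content of 69.0% and held none of the 3 motifs. The second has 66.4% and held 1 TATA box, near the end furthest from the start of Col13a1. Bases nearer to that start than base 99 are not shown because they lie within the RefSeq extent of Col13a1. In the 250 bases before the start, TATA boxes were present in 5 of the 33 collagen genes in the table and in 12.4% of all 32851 promoters. GC boxes were present in 20 of the 33 and in 32.7% of all, and CCAAT boxes in 12 of the 33 and 33.8% of all. Each collagen gene was counted by 1 promoter entry, whereas the shares of all count every entry, so the units differ. No motif contains another, and a match is a description of the sequence only.

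Among the basement membrane collagens, the signals of the brightest Col4a3 probe set were 9.72, 9.81 and 9.54 in AKR F1 replicates 1 to 3. In DBA F1 they were 8.85, 8.86 and 8.88. The lowest AKR F1 array stood well above the highest DBA F1 array, and the DBA F1 arrays were nearly equal. The difference was 0.83 ± 0.072 (SE, n = 3 per group, limma adjusted p = 0.00293). The call survived the removal of any single array, with adjusted p from 0.000524 to 0.0233. With the squamous list mean as a covariate the difference was 0.69 (adjusted p = 0.00959). With AKR F1 replicate 3, which carries the squamous signal, as the single AKR F1 array, it was 0.68 and not called (adjusted p = 0.0547).

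The other probe set of Col4a3 differed less. It read 8.48, 8.64 and 8.41 in AKR F1 and 8.18, 8.20 and 8.29 in DBA F1. The groups again did not overlap, but the difference of 0.29 ± 0.072 was not called (limma adjusted p = 0.0993). The probe sets of this gene therefore share a direction and differ in size, by 0.83 against 0.29, and the gap between them was not tested. With the mean of both as the value of the gene, the difference was 0.56 (adjusted p = 0.0173).

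Col4a4 encodes the alpha 4 chain, the partner of alpha 3 in the same trimer. Its brightest probe set read 10.10, 10.13 and 9.92 in AKR F1 and 9.86, 9.82 and 9.70 in DBA F1. The groups did not overlap, though AKR F1 replicate 3 lay only slightly above DBA F1 replicate 1. The difference was 0.26 ± 0.071 and was not called (limma adjusted p = 0.129). Its other probe sets differed by 0.17 (adjusted p = 0.248) and 0.34 (adjusted p = 0.0735), so all 3 had the same sign. Without AKR F1 replicate 3 the brightest was called at 0.32 (adjusted p = 0.0425). With the squamous covariate it was 0.14 (adjusted p = 0.563).

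Col4a5, the X-linked gene for the alpha 5 chain that completes this trimer, read 9.41, 9.44 and 9.22 in AKR F1. In DBA F1 it read 9.40, 9.19 and 9.17. DBA F1 replicate 1 lay inside the AKR F1 range, and the difference of 0.10 ± 0.086 was not called (limma adjusted p = 0.577). Its dimmer probe set differed by 0.23 ± 0.086 (adjusted p = 0.215). All 7 tested probe sets of the alpha 3, alpha 4 and alpha 5 chains thus had positive differences, from 0.10 to 0.83, with 1 of them called. They are repeat readings of 3 genes, so they do not count as 7 separate members. Over all tested probe sets 57.4% of differences were above 0 and 2.62% were called.

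The chains of the common type IV network differed little. Col4a1, for the alpha 1 chain, read 11.64, 11.75 and 11.42 in AKR F1 and 11.53, 11.54 and 11.59 in DBA F1. AKR F1 spanned the whole DBA F1 range, and the difference was 0.050 ± 0.081 (limma adjusted p = 0.792). Col4a2, its neighbour on chromosome 8 and the gene for the alpha 2 chain, differed by 0.10 ± 0.086 (adjusted p = 0.588). Its highest and lowest arrays, 11.42 and 11.06, were both AKR F1. Col4a6, the alpha 6 gene next to Col4a5 on the X chromosome, differed by -0.061 ± 0.071. No interval here excludes a small difference in either direction.

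**Figure D1:**
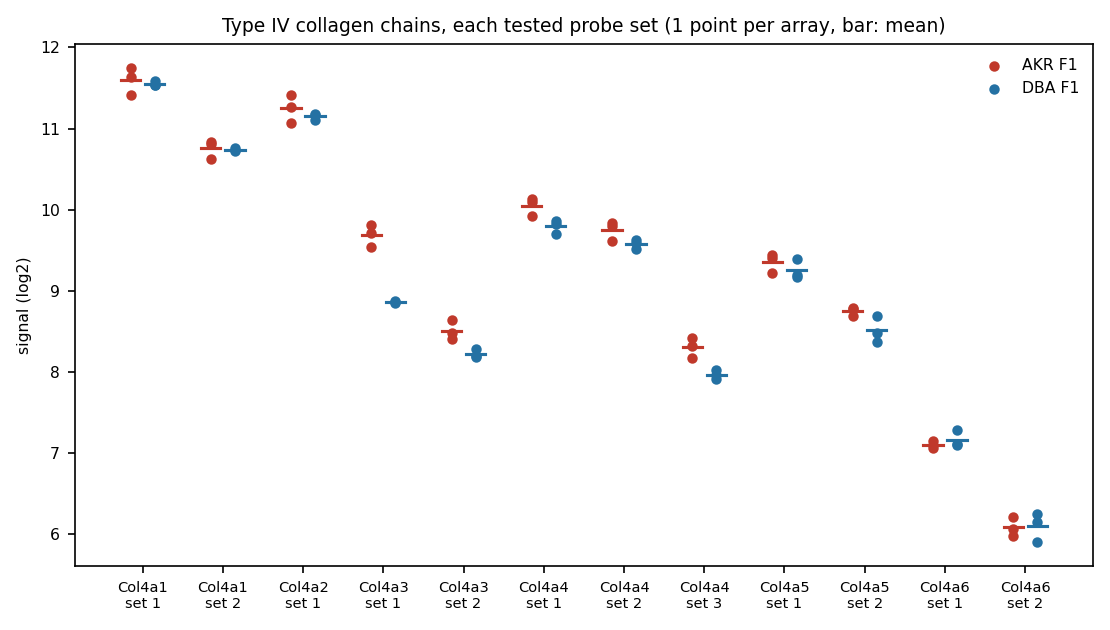
Log2 signal of every tested probe set of the 6 type IV collagen genes, with 1 point per array, a bar at the group mean, and AKR F1 in red beside DBA F1 in blue; sets are numbered by brightness within a gene. Both Col4a3 sets separate the groups, by 0.83 and 0.29, while the groups overlap in Col4a1 and Col4a6.

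The remaining basement membrane collagens, Col15a1 and Col18a1, are multiplexins with interrupted helices, and cleavage of the latter releases endostatin. Col15a1 differed by -0.16 ± 0.12 and Col18a1 by -0.12 ± 0.073, and neither was called by limma (adjusted p = 0.536 and 0.449). DBA F1 replicates 1 and 2 were the high arrays for both, with replicate 3 of that group inside the AKR F1 range or below it. Over the 8 basement membrane collagens the median difference was 0.075, with 5 positive and 3 negative. That median was -0.088 with the squamous covariate, so its sign is not settled. The median over all tested genes was 0.015.

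Beside the alpha 3 and alpha 4 chains, markers of the alveolar epithelium were read. Of the 13 tested markers 12 had positive differences and 3 were called, namely Sftpb, Napsa and Lpcat1, which serve surfactant production and turnover, at 0.32, 0.34 and 0.41. Over all tested genes 55.1% of differences were above 0, 2.48% were called and 19.1% had an unadjusted p under 0.05. Endothelial markers, with list means of 10.41 to 10.57 in AKR F1 and 10.28 to 10.39 in DBA F1, had 9 of 10 positive and 0 called by limma, with 5 at an unadjusted p under 0.05. Kdr and Flt1, receptors for VEGF, differed most in that list, by 0.38 and 0.35. All markers of both lists lay above the filter level. Their part in the Col4a3 result was not tested.

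The genes on either side of the pair on chromosome 1 were described as well. On the Col4a4 side, the rhomboid protease gene Rhbdd1 differed by 0.0012 and the insulin receptor substrate Irs1 by -0.077. On the Col4a3 side, the mitochondrial fission factor Mff differed by -0.092 and the Arf GTPase-activating protein gene Agfg1 by 0.19. None of these was called by limma. The thiamine transporter gene Slc19a3, which follows Agfg1, was called at 0.56 ± 0.077 (adjusted p = 0.0165). Around Col13a1 on chromosome 10, the 6 nearest tested genes ran from -0.50 (Aifm2) to 0.19 (Fam241b), and 0 were called.

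**Figure D2:**
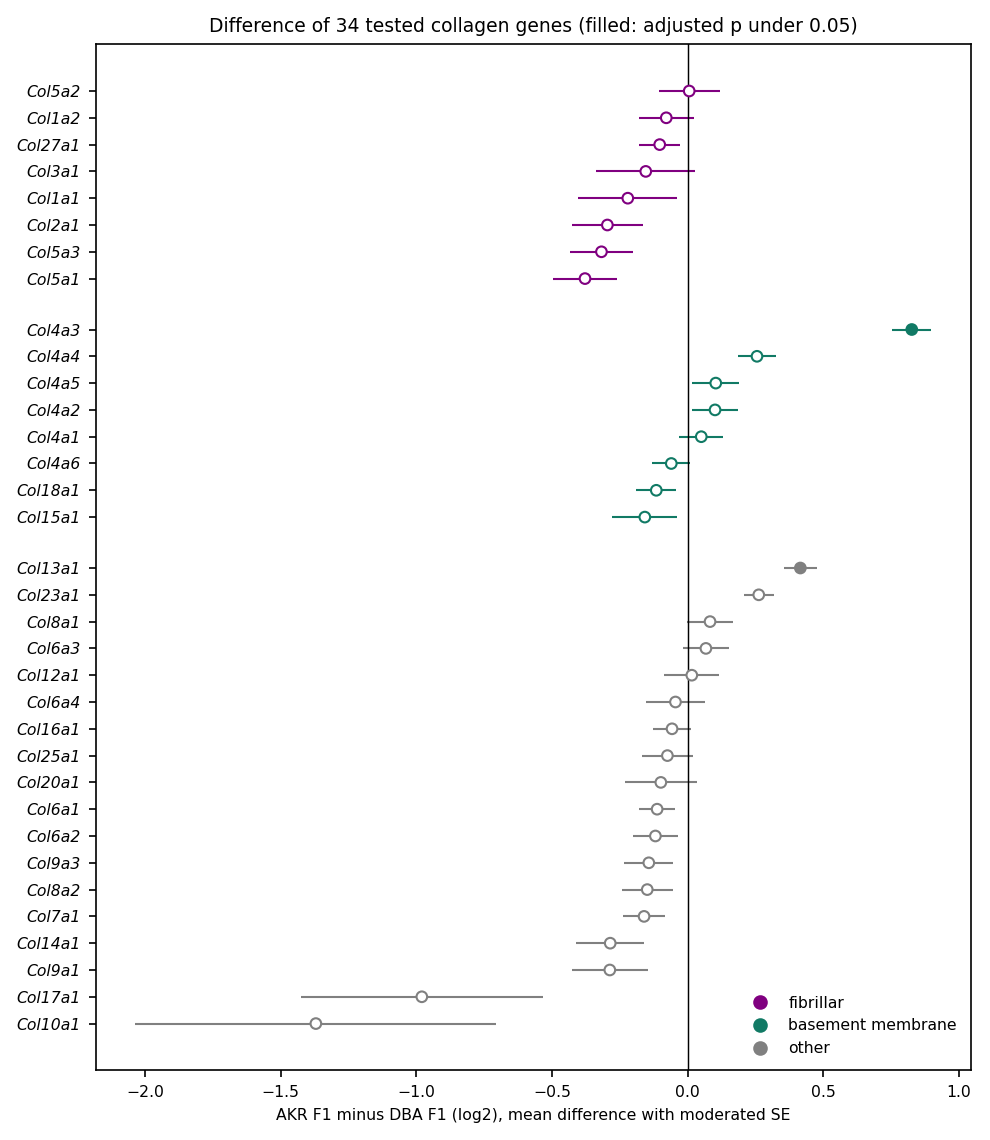
Difference between the crosses (AKR F1 minus DBA F1, log2) for the 34 tested collagen genes, grouped as fibrillar, basement membrane and other, with bars of 1 moderated SE and filled points for called genes. Col4a3 (0.83) and Col13a1 (0.41) are filled, and the widest bars belong to Col10a1 and Col17a1.

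Transmembrane collagens are single-pass proteins of the plasma membrane with a collagenous outer part that can be shed. Col13a1 read 9.03, 8.91 and 8.88 in AKR F1 and 8.52, 8.59 and 8.46 in DBA F1. Every AKR F1 array was higher than every DBA F1 array. The difference was 0.41 ± 0.062 (SE, n = 3 per group, limma adjusted p = 0.0214). Its size changed little when 1 array was left out (0.37 to 0.45), but the call was lost without AKR F1 replicate 1 or 2 or DBA F1 replicate 1 or 2, with adjusted p of up to 0.0925. With the squamous covariate it was 0.37 (adjusted p = 0.145).

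Col23a1, another membrane collagen, had the same direction in all 3 of its tested probe sets. The brightest read 8.31, 8.32 and 8.23 in AKR F1 and 7.97, 8.01 and 8.09 in DBA F1. The others differed by 0.37 and 0.47, and the groups did not overlap in any of the 3. The brightest differed by 0.26 ± 0.056 and was not called (limma adjusted p = 0.0658). The mean of the 3 probe sets was called at 0.37 (adjusted p = 0.0335), and so was the brightest with array weights (adjusted p = 0.0342). Col25a1, known from neurons and developing muscle, differed by -0.075 ± 0.094.

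Col17a1, the hemidesmosome collagen of stratified and airway basal epithelium, was low on the same arrays as the squamous list. It read 4.70 and 4.30 in AKR F1 replicates 1 and 2 and 6.14 in replicate 3. In DBA F1 it read 5.82, 6.40 and 5.87. AKR F1 replicate 3 lay inside the DBA F1 range, and both other AKR F1 arrays lay below it. The difference was -0.98 ± 0.45 (limma adjusted p = 0.301). AKR F1 replicates 1 and 2 were under the filter level (4.72), so Col17a1 was tested only through its high arrays and the size is not exact. Without AKR F1 replicate 3 the difference was -1.53 and called (adjusted p = 0.0121), a value that rests on that choice of arrays. With the squamous list mean as a covariate it was 0.072 (adjusted p = 0.937). Krt5, a basal cell keratin of that list, read 6.41 and 5.98 in AKR F1 replicates 1 and 2 and 8.16 to 8.95 elsewhere.

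Col7a1, which forms the anchoring fibrils beneath such epithelia, varied less. It read 5.93, 5.85 and 5.97 in AKR F1 and 5.99, 6.18 and 6.05 in DBA F1. The groups did not overlap, with AKR F1 replicate 3 just under DBA F1 replicate 1, and the difference was -0.16 ± 0.078 (limma adjusted p = 0.328). Among the 34 tested collagens the groups did not overlap in 7, 4 higher in AKR F1 and 3 higher in DBA F1. Over all tested genes this held for 24.2%, with 14.2% higher in AKR F1 and 10.0% higher in DBA F1.

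Among the fibrillar collagens 0 of 8 tested were called by limma, and 2 had an unadjusted p under 0.05. Of the 8, 7 had lower means in AKR F1, and the class median was -0.19. The median ranged between -0.34 without DBA F1 replicate 3 and -0.083 without DBA F1 replicate 1. Over all tested genes 55.1% of differences were above 0. The share with an unadjusted p under 0.05 was 19.1%, and 2.48% were called.

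Type I and type III collagen are the main fibril formers of lung interstitium. Col1a1, the type I alpha 1 gene, read 9.64, 10.00 and 9.73 in AKR F1 and 10.38, 10.00 and 9.65 in DBA F1. One array, DBA F1 replicate 1, stood above the rest, DBA F1 replicate 2 was about level with the highest AKR F1 array, and DBA F1 replicate 3 lay inside the AKR F1 range. The difference was -0.22 ± 0.18 (limma adjusted p = 0.574). Col3a1, for type III, read 11.63, 11.97 and 11.82 in AKR F1 and 12.35, 11.93 and 11.60 in DBA F1. The highest and the lowest arrays were both DBA F1. It differed by -0.15 ± 0.18. Col1a2, which supplies the other type I chain, differed by -0.079 ± 0.10. The dimmer probe sets of Col1a1 and Col1a2 both differed by -0.37, with adjusted p of 0.452 and 0.386.

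Type V collagen sits inside type I fibrils and limits their width. Col5a1 read 7.69, 7.87 and 7.74 in AKR F1 and 8.36, 8.18 and 7.89 in DBA F1. The groups did not overlap, although DBA F1 replicate 3 nearly met AKR F1 replicate 2. The difference was -0.38 ± 0.12 and was not called (limma adjusted p = 0.165). Its other probe sets differed by -0.45 and -0.34. Without DBA F1 replicate 3 the brightest was called at -0.50 (adjusted p = 0.0454). Col5a3, for the alpha 3 chain of type V, differed by -0.32 ± 0.11 (adjusted p = 0.211). Its signals, 4.76 to 4.91 in AKR F1 and 4.99 to 5.37 in DBA F1, lay near the filter level.

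Its partner Col5a2 was level between the groups. It read 9.32, 9.48 and 9.30 in AKR F1 and 9.55, 9.42 and 9.12 in DBA F1, and the highest and lowest arrays were both DBA F1. The difference was 0.0053 ± 0.11 (limma adjusted p = 0.987). Col5a2 and Col3a1 are neighbours on chromosome 1. Col27a1, a fibrillar collagen of developing cartilage and epithelia, differed by -0.10 ± 0.076.

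**Figure D3:**
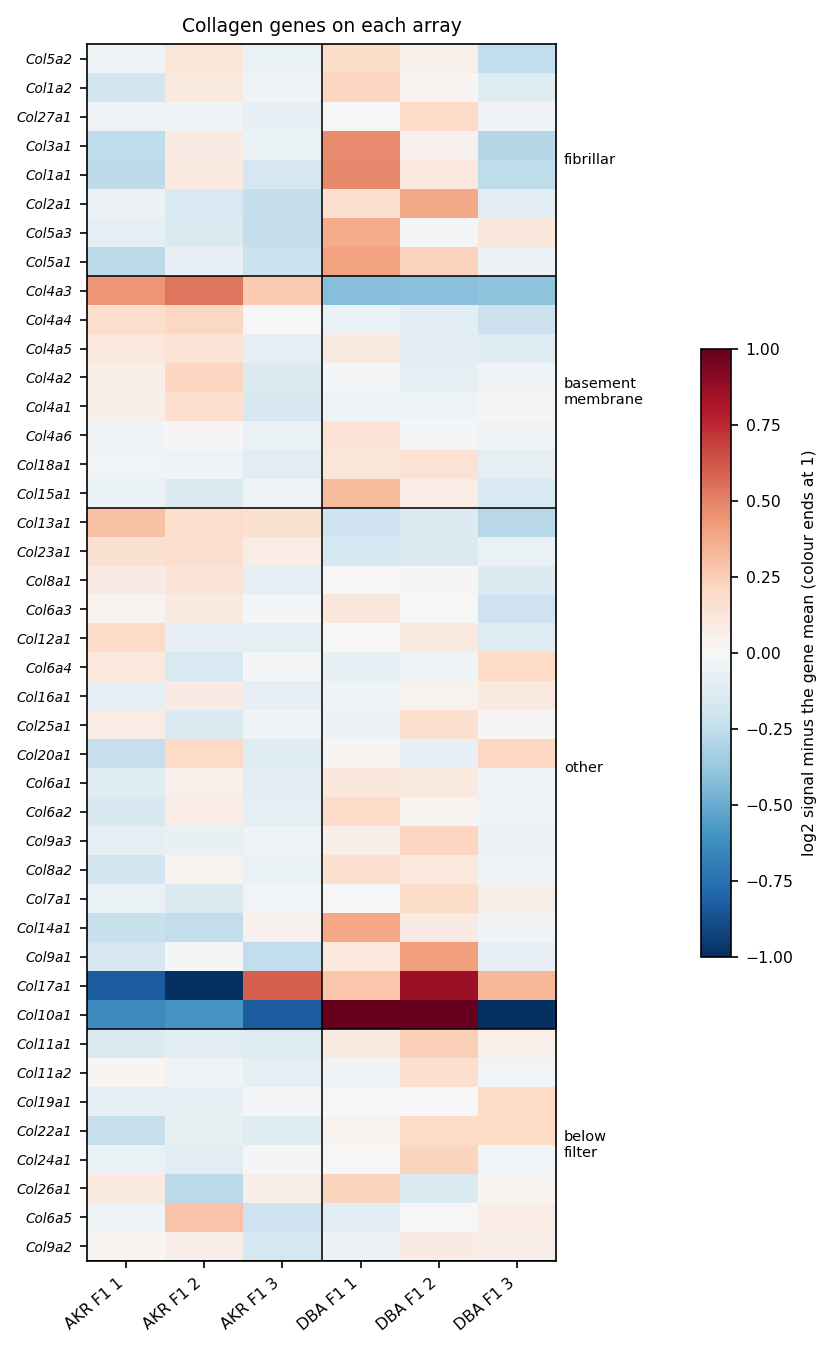
Log2 signal of the 42 collagen genes on each array after subtraction of the mean of the gene, red above and blue below it, with colour limits at 1 and lines between the classes. Col4a3, Col4a4, Col13a1 and Col23a1 are higher on all AKR F1 arrays than on any DBA F1 array, whereas Col1a1 and Col3a1 are highest on DBA F1 replicate 1.

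Fibroblast markers other than collagens were looked at beside this class. The list means were 9.99 to 10.08 in AKR F1 and 10.13 to 10.25 in DBA F1, with all 12 markers above the filter level. Of the 12, 6 had positive and 6 had negative differences, with a median of -0.0030. By limma 3 were called, where 2.48% of all tested genes were called, 1.42% toward AKR F1 and 1.06% toward DBA F1. Dpt and Mfap5, matrix proteins of adventitial fibroblasts, were called toward DBA F1 (-0.82 and -0.78), and Npnt, a basement membrane ligand of integrins, was called toward AKR F1 (0.43). Pdgfra differed by -0.011. All 10 smooth muscle markers had negative differences with 0 called by limma, 5 at an unadjusted p under 0.05, and list means of 8.72 to 8.94 in AKR F1 and 8.91 to 9.27 in DBA F1. Of all tested genes, 55.1% had positive differences and 19.1% had an unadjusted p under 0.05. Desmin (Des) and calponin (Cnn1) both differed by -0.55. The part of these cells and of adipose tissue in the fibrillar values was not tested.

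Type VI collagen, whose beaded microfibrils link basement membranes to the interstitium, was nearly level between the crosses. Col6a1 differed by -0.11 ± 0.066, Col6a2 by -0.12 ± 0.082 and Col6a3 by 0.067 ± 0.083. None was called by limma, with adjusted p from 0.411 to 0.720. Col6a4, a mouse gene for a related chain, differed by -0.045 ± 0.11.

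Fibril-associated collagens bind the surface of other fibrils, and 0 of the 6 tested were called by limma (0 at an unadjusted p under 0.05). Among all tested genes these shares were 2.48% and 19.1%. Col14a1, which is found along mature type I fibrils, read 7.81, 7.78 and 8.08 in AKR F1 and 8.42, 8.11 and 8.00 in DBA F1. AKR F1 replicate 3 lay above DBA F1 replicate 3, and the difference was -0.29 ± 0.13 (adjusted p = 0.288). Its next brightest probe set gave -0.29 and the dimmest -0.12. Col12a1, its close relative, differed by 0.015 ± 0.10 and by -0.14 in its other probe set. Col16a1 differed by -0.058 ± 0.071 and Col20a1 by -0.099 ± 0.13.

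Among the tested collagens of cartilage, Col10a1, Col2a1, Col9a1 and Col9a3 were highest on DBA F1 replicates 1 and 2. Col11a2 and Col9a2, both below the filter level, did not have this order. Col11a2 read 4.54 on AKR F1 replicate 1 and 4.49 on DBA F1 replicate 1, and Col9a2 read 3.31 and 3.23. Col10a1, made by hypertrophic chondrocytes, read 4.10, 4.15 and 3.91 in AKR F1. In DBA F1 it read 5.91, 6.64 and 3.73, so that the group held both the highest and the lowest arrays. The difference of -1.37 ± 0.67 was the largest among the collagens toward DBA F1 and was not called (limma adjusted p = 0.329). Every AKR F1 signal and that of DBA F1 replicate 3 were under the level of the filter (4.72), so that Col10a1 was tested only through the arrays where it was high, and the size is not exact. Without DBA F1 replicate 3 the difference was -2.22 (adjusted p = 0.0127), a value that rests on that choice of arrays, and without DBA F1 replicate 2 it was -0.76.

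The tested collagens of hyaline cartilage had the same high arrays. Col2a1, the fibrillar collagen of cartilage, read 5.44, 5.34 and 5.26 in AKR F1 and 5.66, 5.87 and 5.39 in DBA F1. It differed by -0.30 ± 0.13 (limma adjusted p = 0.283). Col9a1 and Col9a3, whose products coat type II fibrils, differed by -0.29 ± 0.14 and -0.14 ± 0.090, with DBA F1 replicate 2 the highest array for each.

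Non-collagen cartilage markers were read on the same arrays. Aggrecan (Acan) was 4.88 to 5.22 in AKR F1 and 5.50, 6.02 and 4.90 in DBA F1. Chondroadherin (Chad) was called toward DBA F1 (-0.94 ± 0.18, limma adjusted p = 0.0445), with 7.45 to 7.98 against 8.32 to 8.85. Matn4 and Cytl1, a matrilin and a cytokine-like protein, went the other way, at 0.25 and 0.22, both uncalled. Of 12 cartilage markers on the array 5 were tested, 2 with positive and 3 with negative differences, and 1 was called. Over all tested genes 55.1% of differences were above 0, and 2.48% were called, 1.06% toward DBA F1. The list had means of 7.02 to 7.31 in AKR F1 and of 7.58, 7.63 and 6.95 in DBA F1. Comp, tested and uncalled, was 4.35 to 4.75 in AKR F1 and 5.45, 5.10 and 4.16 in DBA F1. The 7 other markers lay below the filter level. Of these, Matn1, Hapln1, Cnmd and Snorc were highest on DBA F1 replicates 1 and 2, and Matn3, Sox9 and Ucma were not. The part of cartilage markers in the Col10a1 and Col2a1 values was not tested.

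**Figure D4:**
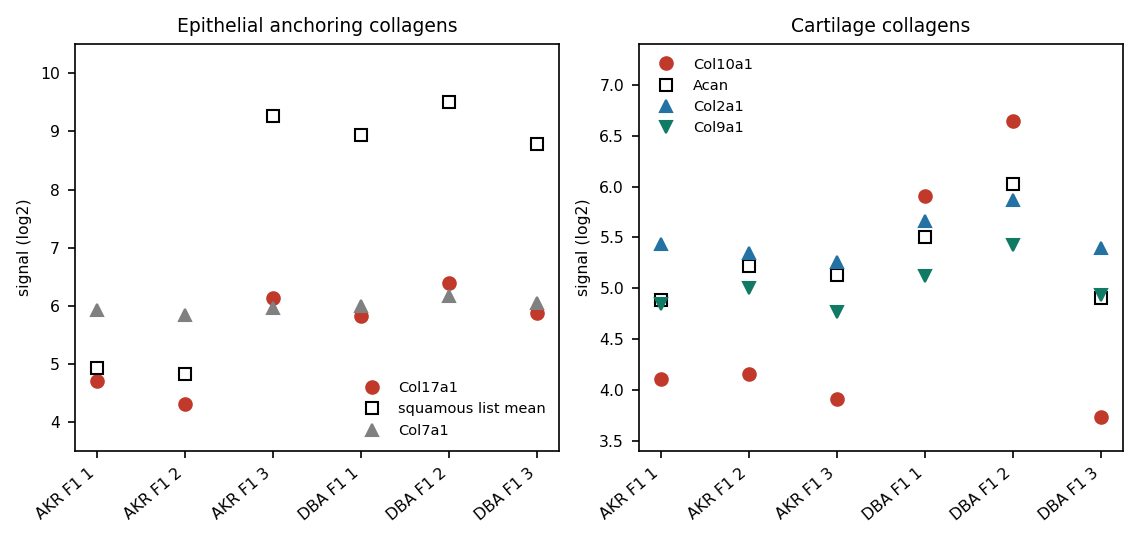
Log2 signal on each array of Col17a1 and Col7a1 with the mean of the squamous epithelium list (left), and of Col10a1, Col2a1 and Col9a1 with the cartilage proteoglycan Acan (right). Col17a1 is low where the squamous mean is low (AKR F1 replicates 1 and 2), and Col10a1 is above 5 only on DBA F1 replicates 1 and 2.

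The short-chain type VIII collagens of vessel walls differed little, with Col8a1 at 0.082 ± 0.085 and Col8a2 at -0.15 ± 0.094. The 8 collagen genes below the filter level were Col11a1, Col11a2, Col19a1, Col22a1, Col24a1, Col26a1, Col6a5 and Col9a2. Their mean signals ran from 2.38 (Col24a1) to 4.59 (Col22a1), where signal is not separated from background, and they were not tested. Over the 34 tested genes the median difference was -0.10, with 11 positive and 23 negative, and the median absolute difference was 0.13. The latter was 0.089 over all tested genes. In 16 of the 18 genes with more than 1 tested probe set, all probe sets had the same sign, the exceptions being Col12a1 and Col8a1.

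Genes that make, process and bind collagen were described by lists of known pathway members. Of 19 tested genes for chain modification, folding and secretion, 0 were called by limma, and 5 had an unadjusted p under 0.05. These shares were 2.48% and 19.1% over all tested genes. Colgalt1, a galactosyltransferase of hydroxylysine, differed by 0.26 ± 0.052 (adjusted p = 0.0507), and its relative Colgalt2 by -0.43 ± 0.10 (adjusted p = 0.0855). The prolyl 3-hydroxylase gene P3h2 differed by 0.41 (adjusted p = 0.145). The collagen chaperone Serpinh1 differed by 0.064 ± 0.082.

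Of 10 tested genes for propeptide removal and cross-linking 1 was called, where 2.48% of all tested genes were called. Pcolce2, an enhancer of procollagen C-propeptide cleavage, read 12.03, 12.10 and 11.99 in AKR F1 and 11.77, 11.60 and 11.57 in DBA F1. The groups did not overlap, and the difference was 0.40 ± 0.064 (limma adjusted p = 0.0279). Its call was lost without AKR F1 replicate 1 or 2 or DBA F1 replicate 2 or 3 (adjusted p of up to 0.124), with the squamous covariate (adjusted p = 0.172) and without a trend (adjusted p = 0.0544). The cross-linking enzyme Lox differed by -0.37 ± 0.23, with 8.30 to 8.93 in AKR F1 and 8.51 to 9.29 in DBA F1.

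Small leucine-rich proteoglycans, which space collagen fibrils, had 0 of 9 called by limma and 2 at an unadjusted p under 0.05. For this list and those that follow, the shares over all tested genes were 2.48% called and 19.1% at an unadjusted p under 0.05. Lumican (Lum) differed by -0.69 ± 0.35 and osteomodulin (Omd) by -0.58 ± 0.18. Collagen receptors had 0 of 8 called and 0 at an unadjusted p under 0.05, with the platelet receptor Gp6 at -0.16 and the integrin Itgb1 at 0.16. Among 11 tested proteases and inhibitors 0 were called, with 2 at an unadjusted p under 0.05. Neutrophil collagenase (Mmp8) read 8.17 on DBA F1 replicate 3 and 5.84 to 6.57 elsewhere, and Timp4 differed by -0.49 ± 0.22. Of 11 tested TGF-beta ligands and matrix genes that it induces, 0 were called and 5 had an unadjusted p under 0.05. Tgfb2 differed by 0.29 and Ccn2 by 0.28, both uncalled.

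Partners of type IV collagen in the basement membrane held 3 called genes of 14 tested, 2 toward AKR F1 and 1 toward DBA F1, where 2.48% of all tested genes were called, 1.42% and 1.06% in these directions. Lama3 and Lamb3, chains of an epithelial laminin, differed by 0.48 ± 0.076 and 0.49 ± 0.072 (limma adjusted p = 0.0266 and 0.0207). Lama3 read 9.35, 9.33 and 9.20 in AKR F1 and 8.95, 8.72 and 8.77 in DBA F1. Lamb3 read 8.87, 9.01 and 8.85 against 8.52, 8.32 and 8.42. In both, every AKR F1 array was higher.

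Both laminin calls were lost without AKR F1 replicate 1 or 2 or DBA F1 replicate 2 (adjusted p of up to 0.120 and 0.0825), and that of Lama3 also without DBA F1 replicate 3. With the squamous covariate Lama3 differed by 0.38 (adjusted p = 0.163) and Lamb3 by 0.42 (adjusted p = 0.140). Lama5, a laminin chain of mature alveolar and vascular basement membranes, differed by 0.30 ± 0.069 (adjusted p = 0.0812).

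Nidogen 1 (Nid1), which links the laminin and type IV networks, had the opposite direction. It read 8.93, 9.14 and 8.95 in AKR F1 and 9.53, 9.55 and 9.54 in DBA F1, with no overlap. The difference was -0.54 ± 0.066 (limma adjusted p = 0.0105), and it was -0.59 with the squamous covariate (adjusted p = 0.0422). The call was lost without AKR F1 replicate 1 (adjusted p = 0.0547) or DBA F1 replicate 2 (adjusted p = 0.0563). Perlecan (Hspg2) differed by 0.0053 and the laminin gamma 1 chain (Lamc1) by 0.0012, each far smaller than its SE of 0.055 and 0.054.

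**Figure D5:**
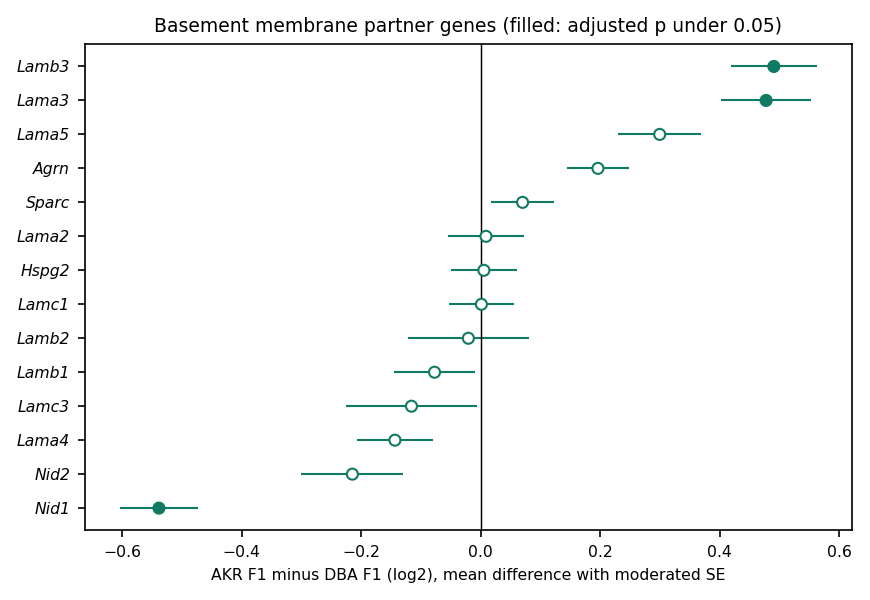
Difference between the crosses (AKR F1 minus DBA F1, log2) for the 14 tested partner genes of basement membrane collagen, with bars of 1 moderated SE and filled points for called genes. Lamb3 and Lama3 lie near 0.5, Nid1 lies at -0.54, and Lamc1, Hspg2 and Lama2 lie close to 0.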

How the data were processed

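Lung RNA from 6 samples (3 AKR F1 and 3 DBA F1, grouped by sample title) was measured on Affymetrix arrays. The deposited table holds log2 signals, 1 per probe set and array. Per the submitters' processing notes, MAS5 and RMA were used, and which of them made the table is not given in the sources used here. The scale was read from the values, whose array medians were 5.46 to 5.49, and they were used as deposited by the authors. After 64 control probe sets were removed, 45037 remained, 34945 with 1 symbol in the platform annotation, 932 with several and 9160 with none. The lowest 40% by mean were left out, leaving 27022 probe sets and 13202 genes. The fit used limma 3.58.1 in R 4.3.3 (lmFit, eBayes with trend, 4 residual and 3.06 prior degrees of freedom, two-sided). Group was its single term, with Benjamini-Hochberg adjustment over all tested probe sets.

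The collagen genes, the partner and marker lists, and the tests were chosen with earlier results of these data known. Named genes were every called collagen, in each class the 4 with the highest mean and the 3 with the largest difference, further members where needed, the called genes or else the 2 largest differences of each partner list, and the 2 largest of marker lists. Krt5, Pdgfra, Colgalt1, Serpinh1, Lox, Lama5, Hspg2, Lamc1, Matn4, Cytl1, Comp, the cartilage markers below the filter level and the neighbouring genes were chosen after their values were seen. Motifs were searched in RefSeq promoters. In simulated data the fit recovered 26 of 50 probe sets changed by 0.5 log2 and 43 of 50 changed by 1, with 6 false calls among 27022. The simulated noise was independent for each probe set and array, without shifts that many probe sets share. These counts therefore need not hold for the real arrays. Alternatives were other filters, normalizations, variance models, array weights, the replicate block, the squamous list mean as a covariate, other summaries of probe sets and leaving out each array. A fit of AKR F1 replicate 3 alone against DBA F1 was added after seeing the data. Its lone array is assumed to vary like the others.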

Additional observations from a re-analysis of the deposited data

How the results depend on the processing

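The 2 collagen calls, Col4a3 and Col13a1, were kept under both other filters, quantile normalization, median centring, array weights, the replicate block, robust eBayes, eBayes with no trend and both other probe set summaries. With the squamous covariate the count was 1, also 1 toward AKR F1 (Col4a3). For AKR F1 replicate 3 alone against DBA F1 it was 0, with 0 toward AKR F1 by limma. With 1 array left out the count ran from 1 to 4, from 1 to 3 toward AKR F1 and from 0 to 2 toward DBA F1. The calls toward DBA F1 included Col10a1 and Col17a1, both tested only through their high arrays. The median of the basement membrane collagens was -0.088 with the squamous covariate and -0.092 for AKR F1 replicate 3 alone, and that of the other collagens was 0.015 with the 60% filter. With 1 array left out the medians ran from -0.0027 to 0.16 (basement membrane), -0.34 to -0.083 (fibrillar), -0.13 to -0.081 (other) and -0.15 to -0.070 (all collagens). Over all probe sets 707 were called, 1198 with array weights, 263 with the squamous covariate, 85 for AKR F1 replicate 3 alone and 198 to 1171 with 1 array left out. The cause of these shifts was not tested.

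Of the 34 tested collagen genes, 11 changed sign under at least 1 alternative while uncalled, and no called difference changed sign. Arrays with the same replicate number did not regularly deviate together (correlations of deviations of 0.31, -0.23 and -0.050). AKR F1 replicate 3 and DBA F1 replicate 2, with unlike numbers, reached 0.31 as well. With 3 arrays per group these values cannot show whether the numbers pair the samples. With the replicate block 539 probe sets and 2 collagen genes were called, and the adjusted p was 0.0133 for Col4a3 and 0.0461 for Col13a1. In the partner lists, the block ended the call of Lamb3 (0.0575). Probe sets near the filter level carry little signal over background.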
